A study of Homo sapiens with 12 samples.

Results

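The genes described here are 10 members of the integrated stress response: ATF4, ATF5, ATF3, DDIT3, CEBPB, CEBPG, TRIB3, CHAC1, PPP1R15A and DDIT4. All probe sets whose annotated symbol is one of these names were taken, which gave 18 of 54675 probe sets and 10 of 19775 named genes on the array. ATF4, ATF5, ATF3, DDIT3, CEBPB and CEBPG encode transcription factors of the basic leucine zipper class. TRIB3, CHAC1, PPP1R15A and DDIT4 do not encode transcription factors; they are genes induced in the same response, so the set is called here by its pathway.

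RNA came from HK-2 cells, an established human kidney line that was immortalized from proximal tubule epithelium, and was measured on 12 Affymetrix arrays in 4 groups of 3. Of these, 2 groups received a low dose of Kbr, for 24 h or 48 h, while the remaining groups were vehicle controls harvested at the same times. The labels do not say what Kbr stands for or at what concentration it was used. All groups shared the same line and a medium with epidermal growth factor, hydrocortisone, insulin, transferrin and selenite, and were treated near confluence. The experiment belongs to a search for expression signatures of toxicity to kidney cells. The labels call the 3 samples of a group biological replicates without saying whether they were separate cultures grown on separate days, so p-values measure the spread between these samples.

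In the integrated stress response, several kinases phosphorylate the translation factor eIF2 when amino acids run short, unfolded protein builds up in the endoplasmic reticulum, double-stranded RNA appears or heme is lacking. Bulk protein synthesis then falls, while messages with suitable upstream reading frames, ATF4, ATF5 and DDIT3 among them, are translated better. ATF4 pairs with C/EBP proteins on composite elements in its target genes, and PPP1R15A and TRIB3 are part of the feedback that ends the response. Because ATF4 protein is set largely by translation, these transcript levels do not report ATF4 activity directly.

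To show what such elements look like, the windows from 250 bases before to 50 bases after each annotated transcription start of the 10 genes were searched on both strands (RefSeq, GRCh38.p14; 19 windows, all 10 genes matched). The stretches are written 5′ to 3′ on the gene's own strand, with the matched motif in capitals. They show the core letters of the ATF4 and C/EBP composite element, TTGCATCA, in CHAC1 (chr15:40953232-40953299, plus strand) and, on the opposite strand, in CEBPG (chr19:33374041-33374108, plus strand).
CHAC1: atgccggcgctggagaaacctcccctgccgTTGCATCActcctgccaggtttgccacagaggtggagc
CEBPG: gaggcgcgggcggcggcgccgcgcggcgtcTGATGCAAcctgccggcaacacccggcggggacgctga
ATF3 (chr1:212565186-212565253, plus strand) held the looser form TTNCATCA, which includes the former, on the opposite strand. ASNS (chr7:97872439-97872506, minus strand), which encodes asparagine synthetase, is a textbook ATF4 target and the gene whose pattern over these arrays was closest to CEBPG. It held the same looser form on the opposite strand.
ATF3: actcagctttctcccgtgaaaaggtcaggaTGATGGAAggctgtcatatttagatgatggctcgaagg
ASNS: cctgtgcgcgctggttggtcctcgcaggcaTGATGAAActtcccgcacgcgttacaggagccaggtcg
PPP1R15A (chr19:48872333-48872400, plus strand) held the palindrome TGACGTCA, the full cyclic AMP response element that many ATF proteins bind.
PPP1R15A: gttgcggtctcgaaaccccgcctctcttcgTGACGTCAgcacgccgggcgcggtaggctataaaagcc

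TTGCATCA was present in 0.866% of all 35116 windows of this length; counted by gene, as for the members, it was in 1.08% of 27305 genes and in 2 of the 10 members. TTNCATCA was present in 3.62% of windows, 4.46% of genes and 3 members, and TGACGTCA in 1.85% of windows, 2.25% of genes and 1 member. The shorter box CCAAT was present in 34.6% of windows, 39.7% of genes and 6 members, and TGACNNNGC in 13.3% of windows, 16.1% of genes and CEBPB, TRIB3 and PPP1R15A. The endoplasmic reticulum stress element, a CCAAT box spaced from a CCACG, was present in 0.077% of windows, 0.09% of genes and no member. A match is a description of letters and not of a bound site.

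The arrays were alike in overall signal: the median log2 value lay between 2.91 and 2.99 and 40.0% to 40.4% of probe sets lay above 4. The difference between 3′ and 5′ control probe sets, a sign of RNA quality, ranged over the arrays from 0.674 to 1.07 for ACTB and from -0.173 to -0.0522 for GAPDH. Arrays of a group correlated at 0.982 to 0.993 over the 10665 genes tested. Of the markers of the labelled cell type, the keratins KRT8, KRT18 and KRT19, EPCAM, CDH1 and the kidney lineage factor PAX8 were measured above 4 on all 12 arrays. Of 9 proximal tubule markers, SLC3A1 was above 4 and the other 8 (ANPEP, GGT1, LRP2, CUBN, AQP1, SLC22A6, SLC5A2 and SLC34A1) were at or below 4 on every array. Among markers of other cell types, the endothelial, leukocyte and distal nephron genes with a probe set annotated to them alone did not pass the filter on low values. CD68 of the leukocyte markers and UMOD of the distal nephron markers had no such probe set, so their levels are not known. The fibroblast markers COL1A1 and DCN were above 4 on all arrays, and the other 4 of the 6 fibroblast genes were at or below 4 on all.

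Low-dose Kbr went with higher transcript levels of 9 of the 10 genes after 48 h and of 1 of the 10 after 24 h. At 48 h ATF3 was 22.8-fold, DDIT3 (CHOP) 7.17-fold, CHAC1 3.63-fold and PPP1R15A (GADD34) 3.54-fold the level of the time-matched controls, and TRIB3, CEBPB, CEBPG, ATF5 and ATF4 lay between 1.54-fold and 2.29-fold. The largest of these sizes rested on single arrays: without treated replicate 3 at 48 h ATF3 was 46.1-fold and DDIT3 had a log2 change of 3.59 in place of 2.84, without treated replicate 1 ATF3 was 14.4-fold, and without control replicate 1 DDIT3 was 11.1-fold and CHAC1 6.58-fold. DDIT4 did not pass the test at either time. The background for these counts is 22.0% of all 10665 tested genes called higher at 48 h and 2.48% at 24 h (limma, Benjamini-Hochberg adjusted p below 0.05). All 10 genes passed the filter, a log2 value above 4 on at least 3 of the 12 arrays. ATF3 and CHAC1 exceeded that value on 11 of the 12 arrays and the other 8 genes on all 12. In RNA from whole cultures, a larger share of cells with a transcript and more transcript per cell cannot be told apart.

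**Figure D1:**
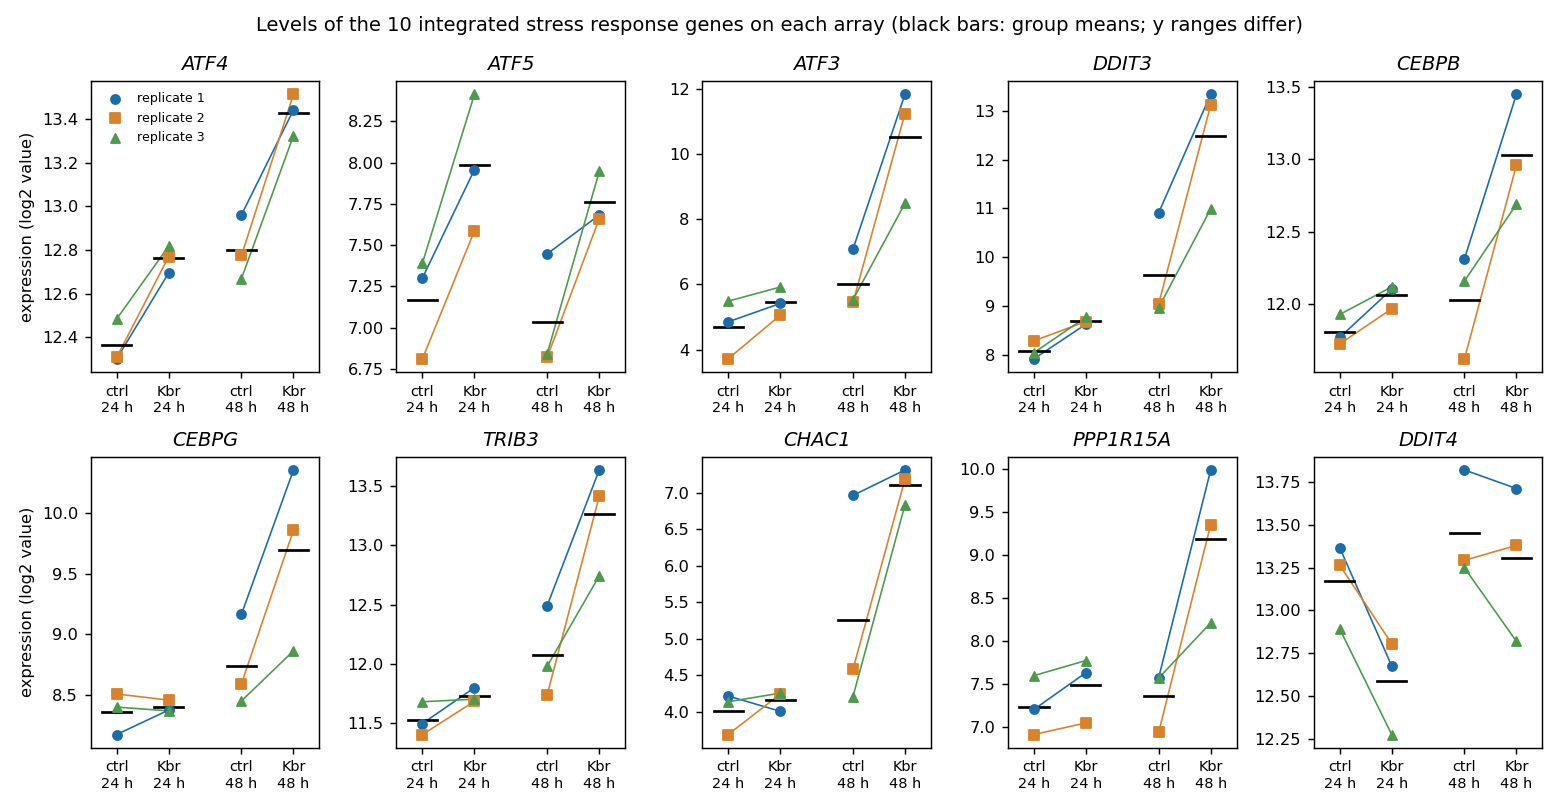
Log2 expression value (vertical axis, with a range of its own for each gene) on each of the 12 arrays for the 10 genes, by group (horizontal axis); symbols mark replicate numbers, lines join control and treated array of the same number, and black bars are group means (n = 3). In 8 genes the treated 48 h mean is the highest of the 4, and the control 48 h array of replicate 1 is the highest of its group in all 10.

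ATF4 is the transcription factor at the centre of the response. Its log2 values in controls at 24 h were 12.30, 12.31 and 12.48 for replicates 1, 2 and 3, and in treated cells 12.70, 12.77 and 12.82. The groups did not overlap. After 48 h controls read 12.96, 12.78 and 12.67 and the treated arrays 13.44, 13.51 and 13.32, again without overlap. The log2 change was 0.40 at 24 h (standard error 0.10, 1.32-fold, adjusted p = 0.0472, limma) and 0.62 at 48 h (standard error 0.10, 1.54-fold, adjusted p = 0.000804, limma), and each of the 3 pairs was higher at each time. ATF4 was the only member past the test at 24 h, and that call was near the threshold. It held in 10 of 21 alternative fits, with adjusted p between 0.0168 and 0.166 over them, and it was lost when any 1 of 8 arrays was left out: the treated 24 h arrays, controls 1 and 2 of 24 h, treated 1 and 2 of 48 h, and control 2 of 48 h. ATF4 also rose with time in the controls, by 0.44 from 24 to 48 h (adjusted p = 0.0449, limma). It was the only member to do so, against 1.42% of all genes, and that call held without treated replicate 3 or control replicate 3 at 48 h but was lost without any other single array.

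ATF5, a relative of ATF4 whose message is also under translational control, showed a different time course. Its probe set of highest signal, 204998_s_at, read 7.30, 6.81 and 7.39 in controls and 7.96, 7.59 and 8.41 in treated cells at 24 h. After 48 h the values were 7.45, 6.82 and 6.84 in controls and 7.68, 7.66 and 7.95 in treated cells. All treated arrays lay above all controls of the same time. The log2 change of 0.82 at 24 h did not pass the test (standard error 0.24, adjusted p = 0.0658, limma) and did with the replicate number as a block (adjusted p = 0.0138). The 48 h change of 0.73 passed (standard error 0.24, adjusted p = 0.0297, limma). That call held in 15 of 21 alternatives, with adjusted p from 0.00816 to 0.0957, and it was lost on leaving out a treated 48 h array, whichever of the 3, or 48 h control 2 or 3. Of the other ATF5 probe sets, 204999_s_at changed by 0.76 at 48 h, while 230938_x_at and 217389_s_at stayed near 5.03 and 3.64 in the 24 h controls and changed by -0.06 and 0.02 at 48 h. The mean over the 4 ATF5 probe sets gave a change of 0.36.

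ATF3, a stress-induced repressor and activator that ATF4 is known to induce, had the largest change of the set. Its log2 values at 24 h were 4.85, 3.72 and 5.49 in controls and 5.42, 5.05 and 5.92 in treated cells, which overlap. By 48 h controls read 7.08, 5.45 and 5.53, and the treated arrays read 11.84, 11.25 and 8.49. The lowest treated array, replicate 3, lay above the highest control, replicate 1. The log2 change was 4.51 at 48 h (standard error 0.79, adjusted p = 0.00122, limma) and 0.78 at 24 h (standard error 0.79, adjusted p = 0.603, limma). The call at 48 h held in all 21 alternatives, with adjusted p up to 0.012. A second ATF3 probe set, 1554980_a_at, read 9.33, 8.38 and 6.52 in treated cells and 3.84, 3.64 and 4.16 in controls at 48 h. Probe set 1554420_at read 2.07 to 2.38 on the 12 arrays, below the filter on all of them. Averaging the 3 ATF3 probe sets gave a change of 2.94 at 48 h.

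DDIT3 encodes CHOP, the C/EBP relative that promotes cell death under lasting endoplasmic reticulum stress. At 24 h it read 7.92, 8.28 and 8.04 in controls and 8.63, 8.68 and 8.77 in treated cells, without overlap. Readings after 48 h were 10.91, 9.05 and 8.96 in controls and 13.34, 13.12 and 10.99 in treated cells. Control replicate 1 thus lay well above the other controls and just below treated replicate 3. The change was 0.61 at 24 h (standard error 0.60, adjusted p = 0.591, limma) and 2.84 at 48 h (standard error 0.60, adjusted p = 0.00362, limma). At 24 h the fit of only the groups compared, whose spread comes from the tight 24 h arrays alone, gave an adjusted p of 0.044.

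CEBPB and CEBPG encode C/EBP proteins that form dimers with ATF4. CEBPB read 12.31, 11.62 and 12.16 in controls and 13.45, 12.96 and 12.69 in treated cells at 48 h, a change of 1.00 (standard error 0.20, adjusted p = 0.00283, limma) with no overlap. Its 24 h controls spanned 11.72 to 11.93 and its 24 h treated arrays 11.96 to 12.12, a change of 0.26 (adjusted p = 0.483, limma). For CEBPG, probe set 225527_at read 9.17, 8.59 and 8.45 in controls and 10.36, 9.86 and 8.86 in treated cells at 48 h. Here treated replicate 3 lay below control replicate 1, so the groups overlapped. The change of 0.96 passed at 48 h (standard error 0.31, adjusted p = 0.0293, limma). It held in 15 of 21 alternatives, with adjusted p from 0.000963 to 0.104, and it was lost on leaving out 48 h treated array 1 (change 0.62, adjusted p = 0.104) or 2, or 48 h control 2 or 3. The second CEBPG probe set, 204203_at, did not overlap at 48 h, with 8.18, 7.64 and 8.11 in controls and 10.22, 10.08 and 9.22 in treated cells, a change of 1.86. At 24 h CEBPG changed by 0.04 (adjusted p = 0.96, limma).

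TRIB3, a pseudokinase induced by ATF4 and CHOP that restrains them, read 12.49, 11.74 and 11.98 in controls and 13.64, 13.41 and 12.74 in treated cells at 48 h. No treated array was as low as a control. The change was 1.20 (standard error 0.23, 2.29-fold, adjusted p = 0.00203, limma), against 0.20 at 24 h (adjusted p = 0.65, limma), where controls spanned 11.40 to 11.68 and treated arrays 11.68 to 11.80. The second TRIB3 probe set, 1555788_a_at, changed by 1.60 at 48 h.

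PPP1R15A encodes GADD34, the phosphatase subunit that removes phosphate from eIF2. Probe set 37028_at read 7.58, 6.94 and 7.57 in controls and 9.99, 9.36 and 8.21 in treated cells at 48 h. The groups did not overlap, and treated replicate 3 was the closest to the controls. Its change was 1.82 (standard error 0.39, adjusted p = 0.00385, limma), and that of the second probe set, 202014_at, was 2.39. At 24 h it changed by 0.25 (adjusted p = 0.753, limma), with 6.91 to 7.60 in controls and 7.05 to 7.78 in treated cells.

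CHAC1, a glutathione-degrading enzyme induced through ATF4, lay close to the filter at 24 h, with 4.21, 3.69 and 4.14 in controls and 4.0, 4.24 and 4.25 in treated cells. By 48 h controls read 6.96, 4.58 and 4.20 and the treated arrays 7.31, 7.18 and 6.83. Control replicate 1 was above treated replicate 3 and close to the other treated arrays, whereas the other controls lay far below every treated array. The change of 1.86 passed the test (standard error 0.55, adjusted p = 0.0186, limma). It held in 15 of 21 alternatives, with adjusted p from 9.73e-05 to 0.0768, and it was lost on leaving out any of the same 4 arrays as for CEBPG. Without control replicate 1 the change was 2.72 (adjusted p = 9.73e-05).

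DDIT4, also known as REDD1, restrains the growth kinase mTORC1 and is induced by ATF4 as well as by low oxygen and glucocorticoids. It was the only member with a change below 0 at both times. At 24 h the controls read 13.37, 13.26 and 12.89 and the treated arrays 12.68, 12.81 and 12.28, each treated array below every control. The change was -0.59 (standard error 0.24, adjusted p = 0.171, limma), and it passed with the replicate number as a block (adjusted p = 0.0134). At 48 h the controls were 13.82, 13.29 and 13.25 and the treated arrays 13.71, 13.38 and 12.82, a change of -0.15 (standard error 0.24, adjusted p = 0.65, limma) in which the groups overlapped. That sign was not stable: the change was 0.09 without treated replicate 3 and 0.03 without control replicate 1 at 48 h.

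With the replicate number as a block, 3 members passed at 24 h in place of 1, ATF4 and ATF5 higher and DDIT4 lower, against a background of 10.4% of all genes called higher and 14.0% called lower in that fit. All 3 treated arrays lay above all 3 controls for 5 of the 10 members at 24 h (ATF4, ATF5, DDIT3, CEBPB and TRIB3), and for 15.9% of all tested genes. DDIT4 had all treated arrays below the controls, as had 15.9% of all genes. After 48 h the treated arrays lay above all controls for 7 members (ATF3, ATF4, ATF5, DDIT3, CEBPB, TRIB3 and PPP1R15A), against 26.0% of all genes. The median log2 change of the members was 0.25 at 24 h and 1.10 at 48 h, where the medians of all tested genes were -0.016 and -0.004. The members were chosen with these results known, so their share describes them and is no test.

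The order of the 4 group means was the same in 6 genes, ATF3, ATF4, DDIT3, CEBPG, TRIB3 and CHAC1: control 24 h lowest, then treated 24 h, control 48 h and treated 48 h. Of these, only DDIT3 had no overlap between any neighbours in that order. In ATF3, ATF4 and TRIB3 treated 24 h and control 48 h arrays overlapped while treated 48 h stood clear. CEBPG and CHAC1 overlapped between all neighbours, and in CEBPB and PPP1R15A, where control 48 h came second and treated 24 h came next, all neighbours overlapped below treated 48 h. In ATF5 both treated groups lay above both control groups. In DDIT4 the 24 h treated arrays lay below the other groups' means, with overlap between the upper 3.

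In treated cells, 8 of the 10 genes rose from 24 to 48 h, against 5.6% of all genes. ATF3 gained 5.07 on the log2 scale (adjusted p = 0.00549, limma), DDIT3 3.79 (adjusted p = 0.00597) and CHAC1 2.94 (adjusted p = 0.011). ATF5 changed by -0.22 (adjusted p = 0.578), and DDIT4 by 0.72 (adjusted p = 0.0815). With the block DDIT4 passed too (adjusted p = 0.00479), which made 9 members against 14.2% of all genes. The count was 5 (ATF3, ATF4, DDIT3, TRIB3 and CHAC1) on leaving out 24 h treated array 2 or 3, or 48 h treated array 1 or 2.

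Whether the effect of Kbr differed between times is a separate question, answered by the 48 h effect minus the 24 h effect. None of the 10 members passed this test (limma; 6 at an unadjusted p below 0.05), and 0.141% of all genes did. The differences were 3.73 for ATF3 (standard error 1.12, adjusted p = 0.167) and 2.23 for DDIT3 (standard error 0.85, adjusted p = 0.237). For ATF5 the difference was -0.09 (standard error 0.34, adjusted p = 0.929). With the replicate block, the number of members past the test was also 0, with adjusted p from 0.0674 for ATF3, while 7.36% of all genes passed. The result turned on single arrays. Without treated replicate 3 at 48 h, ATF3, DDIT3, CEBPG, TRIB3 and PPP1R15A passed, 5 members against 4.38% of all genes. Without control replicate 1 at 48 h, CHAC1 alone passed, against 0.0188% of all genes.

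**Figure D2:**
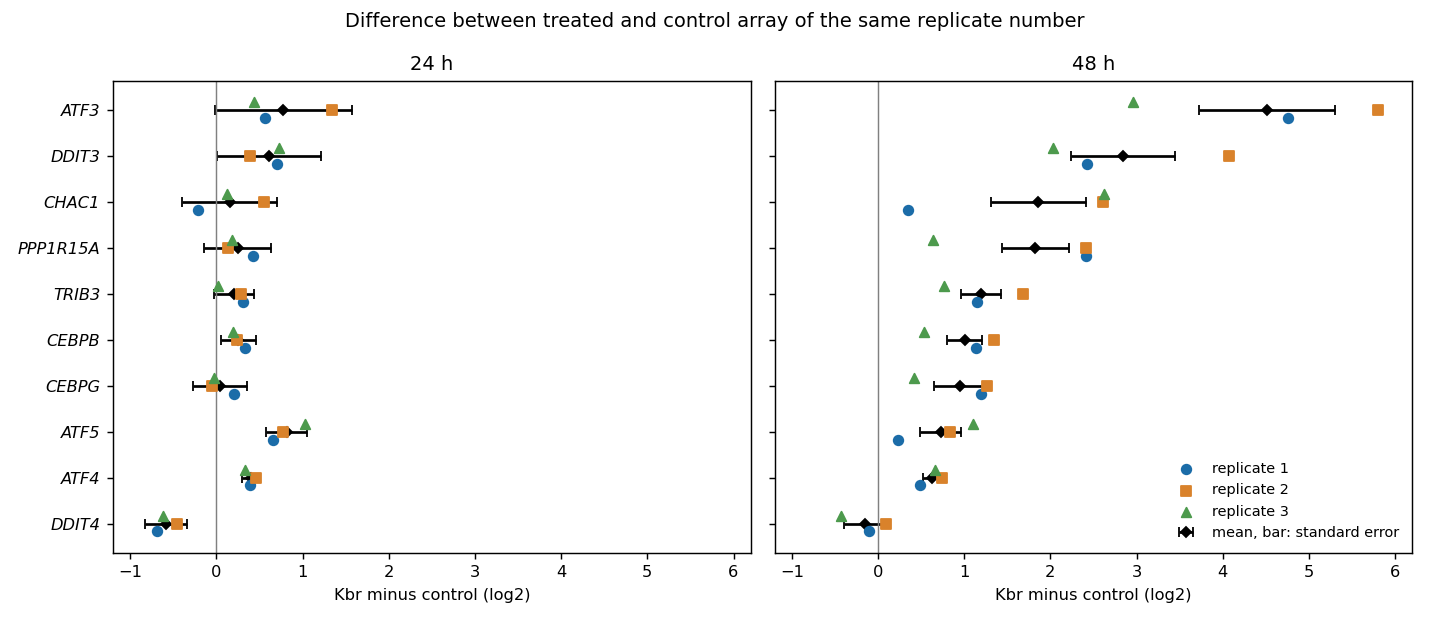
Log2 value of the treated array minus the control array of the same replicate number for each gene, at 24 h (left) and 48 h (right); coloured symbols are the 3 replicate numbers, black diamonds the mean and bars limma's standard error. At 48 h replicate 3 is the smallest difference in ATF3, DDIT3, PPP1R15A, TRIB3, CEBPB and CEBPG, while replicate 1 is the smallest in CHAC1, ATF5 and ATF4.

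The 3 replicate-number pairs at 48 h showed how unevenly the genes moved. ATF3 was higher by 4.76, 5.81 and 2.96 in pairs 1, 2 and 3, and DDIT3 by 2.43, 4.07 and 2.02. The pairs gave 1.14, 1.34 and 0.53 for CEBPB, 1.19, 1.27 and 0.41 for CEBPG, and 1.15, 1.68 and 0.76 for TRIB3. PPP1R15A differed by 2.42, 2.42 and 0.64. In these 6 genes pair 3 was the smallest. ATF4, with 0.48, 0.74 and 0.66, and ATF5, with 0.24, 0.84 and 1.10, were smallest in pair 1. CHAC1 had 0.35, 2.60 and 2.63, with pair 1 smallest, where the control array read 6.96. DDIT4 had -0.11, 0.09 and -0.43, so that 9, 10 and 9 members were higher in the treated array of pairs 1, 2 and 3. The median over the 10 genes was 1.14, 1.51 and 0.71. At 24 h these medians were 0.36, 0.34 and 0.18.

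A pair of arrays at 48 h stood at the edge of their groups for nearly all members. Control replicate 1 was the highest control for 10 of 10 genes, compared with 34.3% of all tested genes and 20.5% of the 2342 other genes called higher at 48 h. Treated replicate 3 was the lowest treated array for 9 of 10 genes, compared with 37.8% of all tested genes and 48.6% of those 2342. The members that kept their call at 48 h without treated replicate 3 numbered 8 (ATF5 was lost), and without control replicate 1 all 9. Leaving out the treated array 1 or 2, or the control array 2 or 3, left 6: ATF3, ATF4, DDIT3, CEBPB, TRIB3 and PPP1R15A. Over the 2342 other genes the median pair difference was 0.73, 0.65 and 0.51. NQO1, an antioxidant enzyme chosen after its values were seen, was higher by 2.99, 2.78 and 2.41 in the 3 pairs, and HMOX1, heme oxygenase, chosen in the same way, by 3.13, 2.45 and 2.42.

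The kinases that start the response and the phosphatase partners that end it were measured as a list of 13 genes, all tested. At 48 h 4 rose and none fell, against 22.0% of all tested genes called higher and 20.8% called lower, and the list's median change was -0.04. With the replicate block 4 were higher and 2 lower, against 28.7% and 28.8% of all genes; the lower ones were OMA1 (adjusted p = 0.0407) and PPP1CA (adjusted p = 0.0183). EIF2AK3, which encodes PERK, the kinase of the endoplasmic reticulum, rose by 1.02 (standard error 0.17, adjusted p = 0.000982, limma), with pair differences of 1.43, 1.24 and 0.38. EIF2AK2, the kinase PKR that responds to double-stranded RNA, rose by 0.32, PPP1R15B, the constitutive partner of the phosphatase, by 0.41 and the adaptor NCK1 by 0.56. EIF2AK2 and PPP1R15B lost their calls without treated replicate 2 at 48 h (adjusted p = 0.0625 and 0.0505). EIF2AK4, which encodes the amino acid sensor GCN2, and EIF2AK1, the heme-regulated kinase, changed by -0.07 and 0.07 and did not pass (adjusted p = 0.769 and 0.563), and neither did DELE1 and OMA1, which relay mitochondrial stress (-0.14 and -0.46). The catalytic subunits PPP1CA, PPP1CB and PPP1CC changed by -0.22, 0.13 and -0.08, and IMPACT and GCN1, regulators of GCN2, by -0.19 and -0.04. Several of these values depended on the probe set. At 48 h other probe sets passed with -1.19 for IMPACT (adjusted p = 0.000944), -0.72 for PPP1CB (adjusted p = 0.00203), -0.52 for DELE1 (adjusted p = 0.0265) and 0.50 for EIF2AK1 (adjusted p = 0.0358), and the mean over a gene's probe sets passed for IMPACT (-0.69), DELE1 (-0.25) and EIF2AK1 (0.28). NCK1 gave -0.08 with another probe set. Other EIF2AK2 probe sets gave 0.14 and 0.25 and did not pass, nor did the mean over its probe sets (0.24, adjusted p = 0.0667, limma). At 24 h no gene of this list passed, with 0 at an unadjusted p below 0.05.

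A list of 9 genes, all tested, held those for eIF2 and its exchange factor eIF2B, and EIF2A, which despite its symbol encodes no eIF2 subunit. At 48 h 3 rose and none fell, against 22.0% and 20.8% of all tested genes, with a median change of 0.18. EIF2S1, the subunit that the kinases phosphorylate, rose by 0.81 (adjusted p = 0.000468, limma), EIF2B3 by 0.79 (adjusted p = 0.000494) and EIF2S2 by 0.53 (adjusted p = 0.00287). The 2 further EIF2S1 probe sets gave 0.18 and 0.20 and did not pass, nor did a second of EIF2S2 with 0.11. EIF2S3, EIF2A, EIF2B1, EIF2B2, EIF2B4 and EIF2B5 changed by -0.18 to 0.22. At 24 h 0 of the 9 passed (limma; 2 at an unadjusted p below 0.05), and EIF2S1 did with the block (change 0.29, adjusted p = 0.0211).

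Genes related to the members by family, or in the case of CEBPZ by symbol only, were taken as a list of 15, of which 12 were tested. ATF1, ATF6B and DDIT4L were not. At 48 h 3 rose and 2 fell, against backgrounds of 22.0% higher and 20.8% lower over all genes, with a median change of -0.14. CHAC2, the paralog of CHAC1, rose by 1.00 (adjusted p = 0.00109, limma) and PPP1R15B by 0.41 as given above. CEBPZ, which is not a basic leucine zipper protein despite its symbol, rose by 0.70. CEBPD, a C/EBP protein of inflammation, fell by 0.65 (adjusted p = 0.000737, limma), opposite in sign to CEBPB and CEBPG. TRIB2 fell by 2.66, from 5.07 ± 0.56 (SD, n = 3) to 2.41 in all 3 treated arrays, a value among the lowest the background model gives, so the size of the fall depends on that model; the mean over its probe sets changed by -1.99. ATF2, ATF6, ATF7, CEBPA, CEBPE, JDP2 and TRIB1 did not pass, with changes from -0.52 for TRIB1 to 0.20 for ATF6. ATF7 gave 1.08 and 1.02 with 2 other probe sets, and ATF6 -0.61 with another. At 24 h none of the 12 passed (limma; 5 at an unadjusted p below 0.05). With the block CEBPZ and CHAC2 were higher then, and TRIB2, JDP2 and CEBPA lower, against 10.4% and 14.0% of all genes in that fit.

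Genes that ATF4 and CHOP are known to induce were taken as a list of 48, of which 39 were tested. At 48 h 20 rose and none fell, against 22.0% and 20.8% of all tested genes, and the list's median change was 0.61. With the replicate block 25 were higher and 1 lower, KLHL24 (change -0.66, adjusted p = 0.00635), against 28.7% and 28.8% of all genes. The largest were the cystine transporter SLC7A11, the amino acid transporter SLC7A5 and its partner SLC3A2, the cystathionine lyase CTH and the stress cytokine GDF15. SLC7A11 read 9.08, 8.06 and 7.75 in controls and 11.58, 11.87 and 10.18 in treated cells at 48 h, a change of 2.91 (standard error 0.42, adjusted p = 0.000424, limma). SLC7A5 changed by 2.84, CTH by 2.62, SLC3A2 by 2.52 and GDF15 by 2.27, with adjusted p between 0.000107 and 0.00395. These 5 were picked by the size of their 48 h change, and none overlapped between groups at that time. Over the list, all treated arrays lay above all controls at 48 h for 15 of the 39 genes, against 26.0% of all tested genes. The sizes were less firm than the calls: the mean over the GDF15 probe sets gave 0.975, other probe sets gave 4.41 for SLC7A11 and 3.48 for CTH, SLC7A5 changed by 3.57 without control replicate 1, and CTH by 3.33 without treated replicate 3. Without treated replicate 3 at 48 h 30 of the 39 rose (21.6% of all genes in that fit), and leaving out another array left 17 to 20. At 24 h 1 of 39 rose, the tRNA exporter XPOT (change 0.61, adjusted p = 0.0363, limma), which lost its call on leaving out a treated 24 h array, whichever of the 3, 24 h control 1 or 2, or 48 h treated array 2 (adjusted p up to 0.145). With the block 4 of the 39 rose and 2 fell at 24 h, against 10.4% and 14.0% of all genes in that fit. SLC7A11 (1.28, adjusted p = 0.0301), SLC3A2 (1.16, adjusted p = 0.0333) and GDF15 (0.86, adjusted p = 0.024) were among the 4.

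The other arms of the unfolded protein response, which run through ATF6 and the IRE1 to XBP1 pathway, were taken as a list of 32, of which 29 were tested. At 48 h 15 rose and 1 fell, against 22.0% and 20.8% of all tested genes, with a median change of 0.86. The endoplasmic reticulum protein SDF2L1 rose by 3.62 (adjusted p = 0.00164, limma), from 6.04, 6.41 and 6.43 to 11.39, 10.45 and 7.92. HSPA5, the chaperone BiP, rose by 1.77 (adjusted p = 0.00139), with pair differences of 2.26, 2.25 and 0.81. HERPUD1, DNAJB9 and DNAJB11, which serve folding and disposal of proteins there, rose by 1.94, 1.78 and 1.58. Pair 3 was the smallest in all 5, as it was for ATF3 and DDIT3. Over the 2342 genes outside the members called higher at 48 h, the median pair difference was 0.73, 0.65 and 0.51. The DNAJB9 groups overlapped at 48 h, with treated replicate 3 at 10.020 and control replicate 1 at 10.021. MBTPS1, the protease that activates ATF6, fell by 0.62 (adjusted p = 0.000791, limma). DNAJB9 lost its call without treated replicate 1 or 2 (adjusted p up to 0.0573). Without treated replicate 2 at 48 h 9 of the 29 rose (17.8% of all genes in that fit), and without treated replicate 3 it was 21. Without treated replicate 3 SDF2L1 changed by 4.63, HERPUD1 by 2.64 and DNAJB9 by 2.54, and without treated replicate 1 SDF2L1 changed by 2.89. Another DNAJB9 probe set gave 2.59. At 24 h 0 of 29 passed (limma; 1 at an unadjusted p below 0.05).

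**Figure D3:**
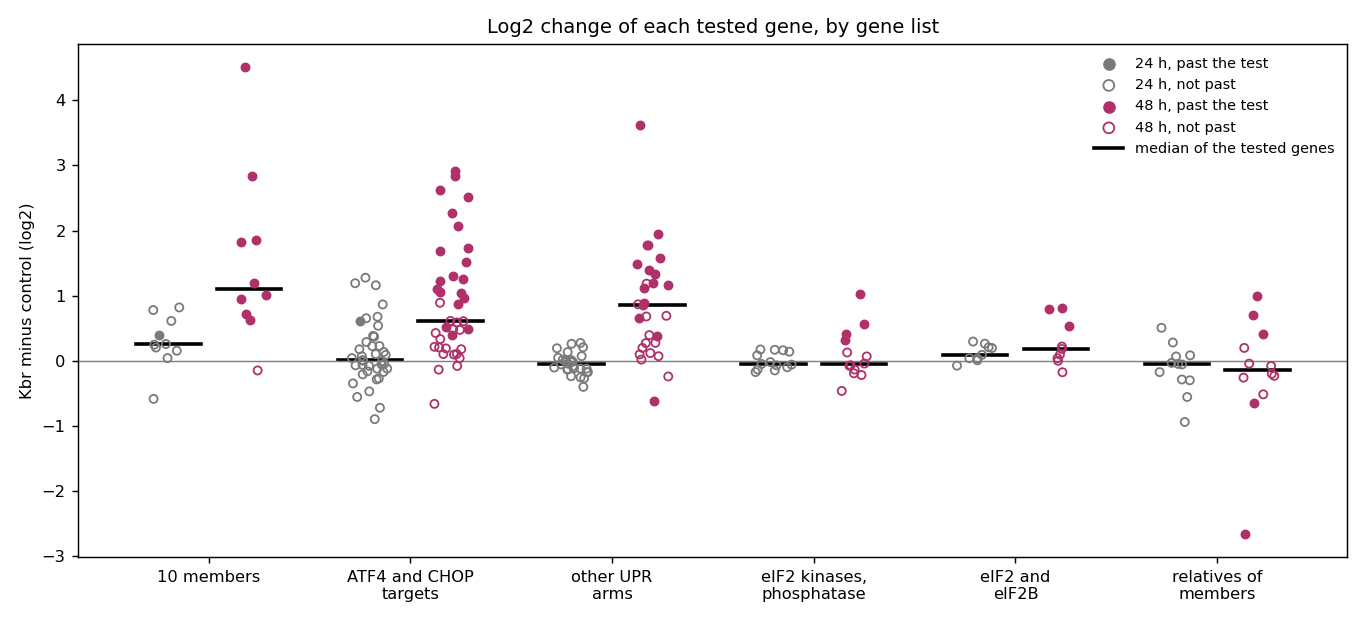
Log2 change, treated minus control (vertical axis), of every tested gene of the 10 members and of 5 related gene lists at 24 h (grey) and 48 h (magenta); filled symbols passed the test and black bars are medians of the tested genes. At 48 h the medians are 1.10 for the members, 0.61 for ATF4 and CHOP targets, 0.86 for the other arms of the unfolded protein response, and -0.04, 0.18 and -0.14 for the remaining lists.

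Markers of cell state moved in these samples as well, and their part in the changes above was not tested. At 48 h KRT19, EPCAM and CDH1 of the 5 epithelial markers fell, with changes of -0.96, -0.41 and -1.49. The share of all tested genes called lower at 48 h was 20.8%. The summed log2 value of the 5 epithelial markers at 48 h spanned 56.33 to 58.75 over controls and 53.02 to 55.33 over treated arrays. KRT8 and KRT18 changed by -0.66 and 0.36 and passed with the replicate block alone (adjusted p = 0.00043 and 0.0179), KRT18 being higher in all 3 pairs. PAX8 changed by 0.40 and was likewise higher in all 3 pairs and past the test with the block (adjusted p = 0.0163). In that fit 28.7% of all genes were called higher and 28.8% lower at 48 h. The fibroblast markers COL1A1 and DCN fell, with changes of -2.06 and -1.69, and the summed value of the 6 listed spanned 30.99 to 31.23 over controls and 27.22 to 27.36 over treated arrays. SLC3A1, a proximal tubule transporter subunit, fell by 1.91. KRT19, CDH1, SLC3A1, COL1A1 and DCN were already lower at 24 h, with changes of -0.85, -1.75, -1.34, -1.30 and -0.73, where 3.25% of all tested genes were called lower.

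Over the 12 arrays, ATF3, ATF4, DDIT3, CEBPB, CEBPG, TRIB3, CHAC1 and PPP1R15A ran together, with Pearson correlations from 0.779 (CHAC1 with PPP1R15A) to 0.987 (DDIT3 with TRIB3) over their 28 pairs. These points share 4 groups and a common normalization, and the treated 48 h arrays are high in all 8 genes. Over the 9 other arrays the same pairs ran from 0.057 to 0.934. As deviations from the group means, they ran from 0.29 to 0.939 with a median of 0.73. These deviations leave out the mean effect of treatment. They keep its unevenness between the arrays of a group and what same-numbered arrays share. ATF5 correlated at most at 0.449 with another member, DDIT4 at most at 0.579, and ATF5 with DDIT4 at -0.552. As deviations from the group means, DDIT4 correlated with the other members at -0.229 to 0.788 with a median of 0.543, highest with CEBPG (0.788) and DDIT3 (0.782), so within groups it ran with them more closely than over all arrays. For ATF5 the highest such value was 0.577 and the median 0.253.

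**Figure D4:**
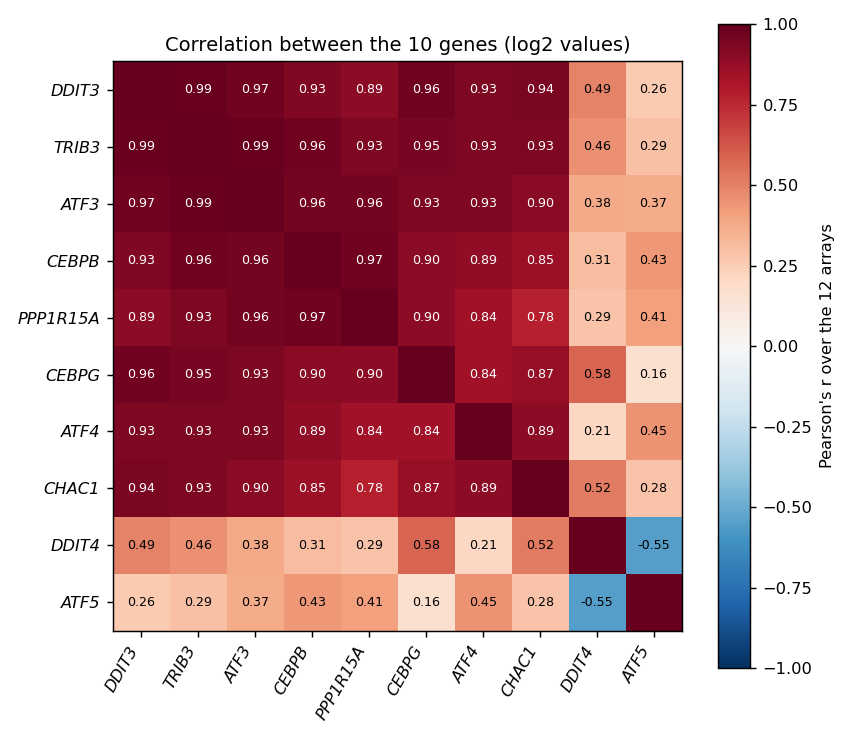
Pearson correlation of log2 values over the 12 arrays between each pair of the 10 genes (colour scale from -1 to 1, values printed in the cells). The 8 genes at the top correlate with one another at 0.78 or above, and DDIT4 and ATF5 correlate less with them over these arrays, with -0.55 between the pair.

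Outside the set, the tested genes whose pattern over the 12 arrays was closest were named by rule, 3 for each member. CEBPG was closest to ASNS (0.994), which rose by 1.22 at 48 h (adjusted p = 0.0431, limma), then to XBP1 (0.978) and the cationic amino acid transporter SLC7A1 (0.974). DDIT3 and TRIB3 were closest to SLC22A15 (0.984 and 0.986), and both had CTH and ZFAS1 among their 3. ATF3 was closest to ATP2A2 (0.977), the calcium pump of the endoplasmic reticulum, which was also among the 3 of CEBPB and PPP1R15A. PPP1R15A was closest to GARS1 (0.984), glycyl-tRNA synthetase, and CEBPB to GADD45A (0.972) and SLC3A2 (0.971). ATF4 was closest to CFAP97 (0.983), CHAC1 to GPBP1L1 (0.935), ATF5 to TMEM201 (0.950) and DDIT4 to ZFYVE1 (0.951). These are descriptions with no test, over arrays that share the same groups.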

How the data were processed

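Log2 values of 54675 probe sets were used as deposited; per the submitters' processing notes they come from GCRMA, whose version and settings the sources used here do not state. Its background model, built on probe sequence, holds weak probe sets at a floor, so their fold changes depend on it. The log2 scale was read from the range of the values. In the annotation 41091 probe sets had 1 symbol, 1801 had several, 11721 had none and 62 were controls; 41037 were matched to a current gene table and 0 symbols changed. The probe set with the highest mean over the 12 arrays stood for a gene. Genes above a log2 value of 4 on at least 3 arrays were tested (10665 of 19775).

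Means of the 4 groups were fitted with limma 3.58.1 (lmFit, eBayes) in R 4.3.3. For each of 5 contrasts, two-sided p-values were adjusted over all tested genes (Benjamini-Hochberg), with a threshold of 0.05. Rose and fell mean past that test against time-matched controls, or over time where so stated, and errors are limma's standard errors. An exact test of 3 against 3 arrays cannot go below 0.1. On simulated data of the 48 h comparison (10665 genes) the fit recovered 79 of 100 genes changed by a log2 value of 1 and 98 of 100 changed by 2. The simulated noise was independent, with the same spread of a gene in every group and no replicate effect. These shares therefore check the fit and do not give its sensitivity on the real arrays.

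Replicate numbers come from the labels. Deviations from group means correlated between same-numbered arrays of different groups at 0.279 to 0.701 (18 pairs) and between others at -0.454 to -0.0613 (36 pairs), so the numbers pair the samples, and the block was run beside the unblocked fit.

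Named genes were all members with all their probe sets, all kinase, eIF2 and relative genes, up to 5 of each target list with the largest change past the test at each time and any past it against the majority, and the 3 genes most like each member. NQO1, HMOX1 and KLHL24 were added after their values were seen. The members and lists were chosen with earlier results of these data known. Promoter windows are from RefSeq, GRCh38.p14.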

Additional observations from a re-analysis of the deposited data

How the results depend on the processing

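With the replicate number as a block, 3 members passed at 24 h in place of 1 and the counts at 48 h, in controls, and for the difference between times kept their size; beside ATF5 and DDIT4 at 24 h and DDIT4 in treated cells over time, the block changed no other call of a member. At 24 h the count was 0 with quantile normalization repeated, with the array median subtracted and with every probe set tested by itself. It was 2 with array weights, which called 635 of all 10665 genes higher where the main fit called 265. Leaving out 1 array gave 0 to 1. At 48 h the count of 9 was 6 with no filter and 7 with only the groups compared, and leaving out 1 array gave 6 to 9. For the difference between the times it was 3 (ATF3, DDIT3 and TRIB3) with array weights, and leaving out 1 array gave 0 to 5. Of all 10665 genes, array weights called 188 higher and 120 lower for that difference, where the main fit called 7 and 8. In controls it was 0 with no filter, with every probe set and with only the groups compared, and leaving out 1 array gave 0 to 1. In treated cells over time it was 5 with only the groups compared, and leaving out 1 array gave 5 to 9. The fit with no filter took in 19775 genes in place of 10665. The cause of these shifts was not tested.

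The choice of probe set or their mean changed the sign of the 48 h change in 8 of the named genes. In 5 of them a value on 1 side passed the test. For ATF5 and NCK1 this was the main value, and the probe sets of opposite sign (-0.060 and -0.077) did not pass. For PPP1CB (-0.722), ATF6 (-0.607) and ATF7 (1.079 and 1.021, and 0.372 for the mean of its probe sets) the alternative passed and the main value did not. In the other 3, EIF2AK4, EIF2S3 and ATF2, neither side passed. The remaining alternatives changed the 48 h sign in 9 named genes, DDIT4 among them, and in none of these did either value pass. The calls of ATF3, ATF4, DDIT3, CEBPB, TRIB3 and PPP1R15A at 48 h held in all 21 alternatives that keep 1 value per gene. The counts of the other lists with each array left out, and the correlations without the treated 48 h arrays, were chosen after seeing the data. Values near a log2 value of 4, as for CHAC1 and ATF3 at 24 h, are limited by the background.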
